A study of Mus musculus with 4 samples.

Results

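The 9 genes described here encode the signals by which neurons hold microglia in check and the proteins through which dying cells are recognised and taken up: Cx3cl1, Cd200, Cd200r1, Cd47, Sirpa, Mertk, Gas6, Pros1 and Mfge8. They were followed in differentiated neural precursor cultures of an Alzheimer's disease mouse model. All non-control probes carrying a RefSeq accession of 1 of these genes were taken, which gave 10 probes (Cd47 has 2) of the 55681 on the array. Of these, 9 probes of 8 genes were among the 26882 probes that passed the filter on dim signal. Cd200r1 did not pass.

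Cultures of 2 genotypes, APPswe/PS1dE9 and wild type (WT), both on the C57BL/6 strain, were compared. APPswe/PS1dE9 mice carry a mutant amyloid precursor protein and a mutant presenilin 1 of familial Alzheimer's disease; the labels do not name the promoters that drive the transgenes. Precursor cells from the telencephalon of day 13 embryos formed neurospheres over 5 days with EGF and FGF2 (20 ng/ml each), and were then kept for 7 days on poly-L-lysine and laminin without these factors; both steps used 2% B-27 supplement. The RNA of 4 replicates per genotype, described as biological, was hybridised to 4 two-colour arrays, each holding 1 APPswe/PS1dE9 and 1 WT sample. The dyes were exchanged between arrays: Cy3 marked APPswe/PS1dE9 RNA on replicates 1 and 2, whereas Cy5 did so on replicates 3 and 4. The labels do not tie the replicates to animals or litters, so the p-values reflect only array-to-array spread, which may be technical. In bulk cultures, more cells of a type and more RNA per cell cannot be told apart.

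Microglia carry receptors for ligands that neurons display: fractalkine (Cx3cl1) is read by Cx3cr1, Cd200 by Cd200r1, and Cd47, the "do not eat me" signal, by Sirpa, whose cytoplasmic motifs recruit phosphatases. Dying cells expose phosphatidylserine, a membrane lipid. The secreted proteins Gas6 and Pros1 (protein S) bridge it to the TAM receptor kinases Tyro3, Axl and Mertk, and Mfge8 bridges it to integrins containing the alpha-v chain. Sirpa and Mertk are abundant on microglia and macrophages but are also expressed by neurons and astrocytes respectively, and Gas6 and Mfge8 are made by astrocytes among other cells.

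The sequences upstream of the start sites of 4 members that differed between the genotypes are shown as the text in which motifs shared by these genes were looked for. Each is the 250 bases before the annotated start in RefSeq (GRCm38.p6), read 5′ to 3′ on the strand of the gene. The windows lie at chr8:94771930-94772179 on the plus strand for Cx3cl1, chr8:13494536-13494785 on the minus strand for Gas6, chr16:62854057-62854306 on the plus strand for Pros1, and chr7:79149061-79149310 on the minus strand for Mfge8. Capitals mark a motif match.
Cx3cl1: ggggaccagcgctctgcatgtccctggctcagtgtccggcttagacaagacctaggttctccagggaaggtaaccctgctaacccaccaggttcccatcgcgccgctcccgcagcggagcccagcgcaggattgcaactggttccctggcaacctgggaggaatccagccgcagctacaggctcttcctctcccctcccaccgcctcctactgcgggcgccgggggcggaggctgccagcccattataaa
Gas6: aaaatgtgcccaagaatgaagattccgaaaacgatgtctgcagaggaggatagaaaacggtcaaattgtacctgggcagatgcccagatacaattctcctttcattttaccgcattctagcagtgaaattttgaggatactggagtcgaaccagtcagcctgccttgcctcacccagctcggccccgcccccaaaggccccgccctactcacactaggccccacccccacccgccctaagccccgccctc
Pros1: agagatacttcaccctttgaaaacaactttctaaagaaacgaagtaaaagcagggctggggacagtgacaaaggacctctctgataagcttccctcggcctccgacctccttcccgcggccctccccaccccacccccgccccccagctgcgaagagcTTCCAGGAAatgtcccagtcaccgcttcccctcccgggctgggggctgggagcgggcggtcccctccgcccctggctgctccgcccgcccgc
Mfge8: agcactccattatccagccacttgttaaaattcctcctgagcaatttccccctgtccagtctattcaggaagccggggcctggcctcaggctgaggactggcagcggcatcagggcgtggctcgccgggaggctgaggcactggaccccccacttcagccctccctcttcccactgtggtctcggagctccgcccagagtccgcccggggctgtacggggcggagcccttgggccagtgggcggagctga

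Both strands were searched for 4 motifs: the interferon response core (GAAA, 2 bases of any kind, GAAA), held by 2.98% of all 32851 windows of this length; the STAT site TTCNNNGAA, held by 7.02%; the AP-1 site TGANTCA, held by 6.75%; and the NF-kB consensus, held by 3.90%. A single match was found in the windows of the 7 member genes that the RefSeq table covers (Sirpa and Cd200r1 were not among them). It was a STAT site in Pros1 that begins 92 bases before the start. The windows of Cx3cl1, Gas6 and Mfge8 held none of these letters. The G and C content was 64.8% for Cx3cl1, 54.8% for Gas6, 64.4% for Pros1 and 65.2% for Mfge8, against a median of 52.4% over all windows.

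On each array, 47.5% to 59.6% of the 59305 probe spots stood clear of background in either channel, with 0 saturated. Across the kept probes, the Spearman correlation of the genotype ratios was 0.46 to 0.54 between arrays of the same dye orientation and 0.10 to 0.25 between arrays of opposite orientation. The Y-linked gene Eif2s3y was well above background in the APPswe/PS1dE9 culture alone on replicate 1 and in the WT culture alone on replicate 3, and in neither culture on replicates 2 and 4. The probe for App was at 0.12 ± 0.06 (SE; adjusted p = 0.296, limma) and that for Prnp at 0.75 ± 0.20 (adjusted p = 0.0717, limma). Neither passed the threshold, although Prnp was higher on all 4 arrays and its signals did not overlap between the genotypes. Whether these probes read the transgenes is not stated in the sources used here.

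Signals below are log2 normalised channel signals, and differences are log2 ratios of APPswe/PS1dE9 over WT, fitted over the 4 arrays with a dye term (limma; adjusted p by Benjamini-Hochberg over all 26882 kept probes, threshold 0.05). Of the 8 member genes tested, 4 were higher in APPswe/PS1dE9 cultures (Cx3cl1, Pros1, Gas6 and Sirpa), 1 was lower (Mfge8) and 3 did not pass (Cd200, Cd47 and Mertk). Their median log2 ratio was 0.24, against 0.01 over all 13658 named genes. Among all kept probes, 8.79% were called, 6.89% higher and 1.9% lower; with 1 probe per named gene the shares were 10.3% and 2.16%. Without replicate 3, or without replicate 4, 1 member probe was called higher (Pros1) and 0 lower. The signals of the genotypes did not overlap for 7 of the 9 member probes, against 11.7% of all kept probes.

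**Figure D1:**
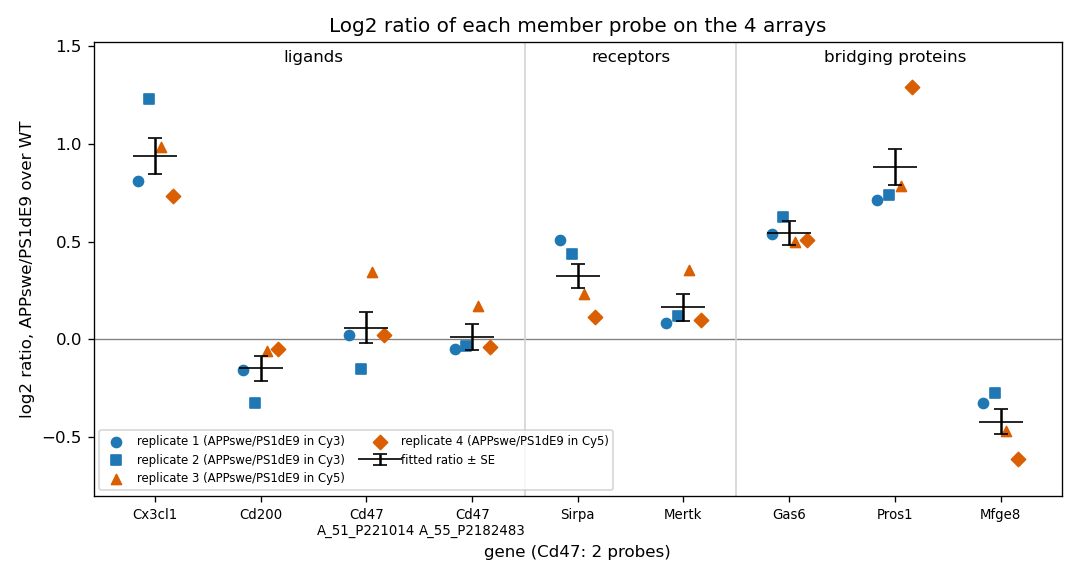
Log2 ratio of APPswe/PS1dE9 over WT (vertical axis) for each tested member probe (horizontal axis) on each of the 4 arrays; symbols mark replicates, colours the dye orientation, and horizontal lines with bars the fitted ratio ± SE. All 4 arrays lie above 0 for Cx3cl1, Sirpa, Mertk, Gas6 and Pros1 and below 0 for Cd200 and Mfge8, while both Cd47 probes lie on either side.

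Among the ligands that neurons display, Cx3cl1 alone passed the test. Its probe (A_51_P196925) had WT signals of 11.33, 11.32, 11.14 and 11.47 on replicates 1 to 4 and APPswe/PS1dE9 signals of 12.14, 12.55, 12.13 and 12.20. Every APPswe/PS1dE9 signal was above every WT signal, with replicate 2 the highest. The fitted difference was 0.94 ± 0.09 (1.92-fold; 95% interval 0.72 to 1.16; adjusted p = 0.00291, limma, n = 4 arrays). The array ratios were 0.81, 1.23, 0.99 and 0.74. The call was lost without replicate 3 (adjusted p = 0.0621) or replicate 4 (0.0581).

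Cd200, a membrane glycoprotein of neurons that engages the inhibitory receptor Cd200r1, had WT signals of 12.02, 12.28, 12.05 and 12.03 (probe A_55_P2052062). Its APPswe/PS1dE9 signals were 11.87, 11.96, 11.996 and 11.98. The groups did not overlap, but they were close together, and the WT culture of replicate 2 stood highest. The difference of -0.15 ± 0.06 did not pass (95% interval -0.30 to 0.01; adjusted p = 0.228, limma).

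Cd47 was read by 2 probes, and neither separated the genotypes. On probe A_51_P221014 the WT signals were 11.38, 11.60, 11.22 and 11.45 and the APPswe/PS1dE9 signals 11.41, 11.44, 11.57 and 11.48. On probe A_55_P2182483 the WT signals were 11.27, 11.32, 11.05 and 11.33 and the APPswe/PS1dE9 signals 11.23, 11.28, 11.23 and 11.29. In both, the genotypes overlapped, and the lowest WT signal was on replicate 3. The differences were 0.06 ± 0.08 (95% interval -0.13 to 0.25; adjusted p = 0.692, limma) and 0.01 ± 0.07 (-0.15 to 0.18; adjusted p = 0.932), and their sign depended on the processing.

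**Figure D2:**
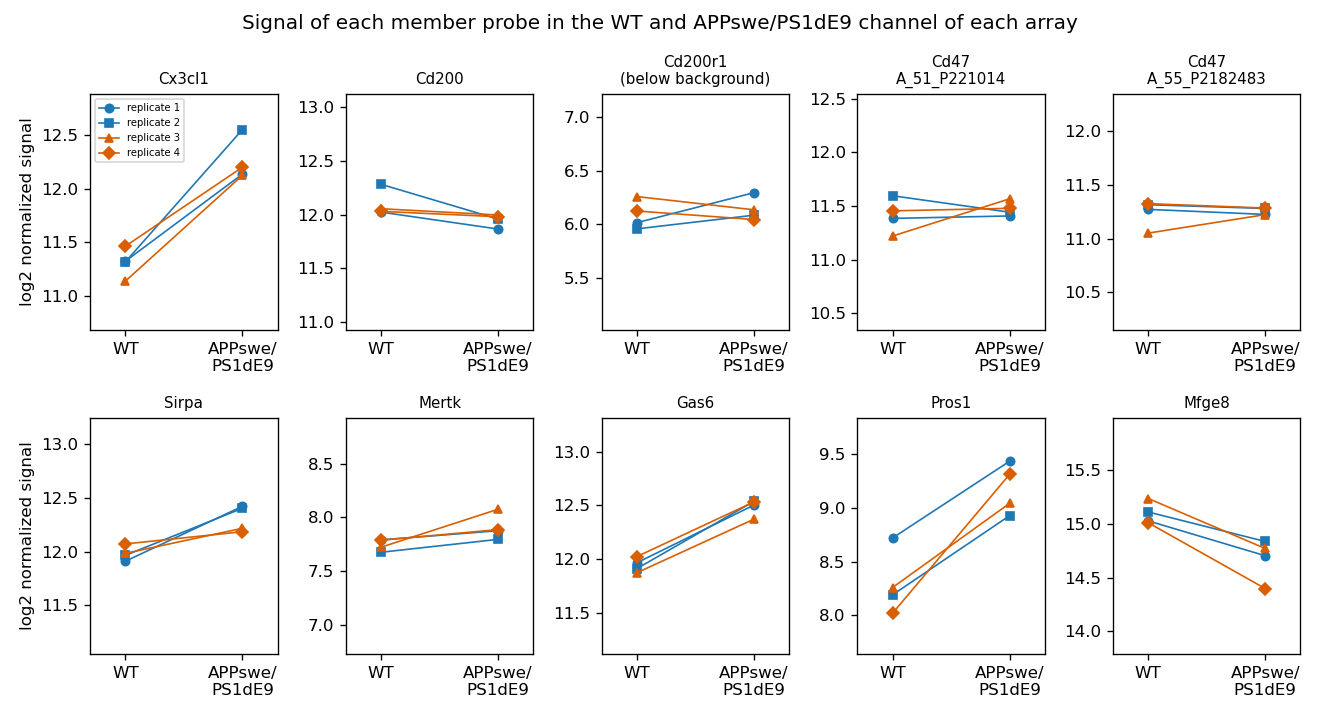
Log2 normalised signal (vertical axes, each spanning the same width) of each member probe in the WT and APPswe/PS1dE9 channel; a line joins the 2 channels of 1 array, coloured by dye orientation. The lines rise on all 4 arrays for Cx3cl1, Sirpa, Mertk, Gas6 and Pros1, fall on all 4 for Cd200 and Mfge8, and cross for Cd47 and for Cd200r1, whose signal did not clear background.

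Of the receptors among the members, Cd200r1, the microglial receptor of Cd200, had no spot well above background in either genotype (probe A_52_P463518). Its median signal exceeded the local background by 22 to 26 units in Cy3 and by -0.5 to 9 in Cy5. It was therefore not tested, and nothing follows about its difference between the genotypes.

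Sirpa, the receptor of Cd47, was higher in APPswe/PS1dE9 cultures by a small amount. Its WT signals were 11.91, 11.96, 11.98 and 12.07 and its APPswe/PS1dE9 signals 12.42, 12.40, 12.22 and 12.18 (probe A_55_P2118037). The groups did not overlap, and the APPswe/PS1dE9 signals of replicates 1 and 2 were above those of replicates 3 and 4. The difference was 0.32 ± 0.06 (1.25-fold; 95% interval 0.17 to 0.48; adjusted p = 0.0308, limma). The array ratios averaged 0.48 on replicates 1 and 2 and 0.17 on replicates 3 and 4, which had the opposite dye orientation, a gap that the SE leaves out. The call was lost under 10 of 16 alternative settings, among them leaving out replicate 3 (adjusted p = 0.154) or replicate 4 (0.133), while the ratio stayed above 0 in all 16.

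Mertk, the TAM kinase used by phagocytes to engulf apoptotic cells, did not pass the test. WT signals were 7.79, 7.67, 7.72 and 7.79 and APPswe/PS1dE9 signals 7.87, 7.79, 8.08 and 7.89 (probe A_51_P366138). The nearest signals of the groups were equal to the printed decimals, and replicate 3 carried the highest APPswe/PS1dE9 signal. The difference was 0.16 ± 0.07 (95% interval -0.01 to 0.34; adjusted p = 0.219, limma), and with the scanner software's processed signals it was 0.02.

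The secreted bridging proteins did not move one way. Gas6, a ligand of all TAM receptors, had WT signals of 11.96, 11.91, 11.87 and 12.02 and APPswe/PS1dE9 signals of 12.50, 12.54, 12.37 and 12.53 (probe A_51_P172054). The groups were well apart and the array ratios, 0.54, 0.63, 0.50 and 0.51, were close to each other. The difference was 0.54 ± 0.06 (1.46-fold; 95% interval 0.39 to 0.69; adjusted p = 0.00487, limma). Without replicate 3 or replicate 4 the adjusted p was 0.0632 or 0.0728.

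Pros1, protein S, an anticoagulant cofactor and a ligand of Tyro3 and Mertk, had WT signals of 8.72, 8.19, 8.26 and 8.02 (probe A_51_P393426). Its APPswe/PS1dE9 signals were 9.44, 8.93, 9.04 and 9.31, all above the highest WT signal, that of replicate 1. The difference was 0.88 ± 0.09 (1.84-fold; 95% interval 0.65 to 1.11; adjusted p = 0.00408, limma). The array ratios were 0.71, 0.74, 0.78 and 1.29, with replicate 4 standing above the others. Pros1 was the member whose call held under all 16 alternatives run, at adjusted p-values up to 0.0449.

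Mfge8, which tethers phosphatidylserine to integrins on phagocytes, was the member called lower. Its WT signals were 15.03, 15.11, 15.24 and 15.01 and its APPswe/PS1dE9 signals 14.70, 14.84, 14.77 and 14.40 (probe A_51_P255682). The groups did not overlap, and the APPswe/PS1dE9 culture of replicate 4 was the lowest. The log2 ratio was -0.42 ± 0.06 (95% interval -0.58 to -0.26; adjusted p = 0.0138, limma), or 1.34-fold lower. It averaged -0.30 on replicates 1 and 2 and -0.54 on replicates 3 and 4. Without replicate 3 the adjusted p was 0.0810 and without replicate 4 it was 0.118.

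Neural ligands and the receptors measured among the members were set side by side within each array, as a description. The Cx3cl1 ratio was above those of Sirpa and Mertk on 4 of 4 arrays, by 0.62 and 0.78 on average. The Cd200 ratio was below both on 4 of 4 arrays, with mean differences of -0.47 and -0.31. The ratio of Cd47 probe A_51_P221014 was above that of Sirpa on 1 of 4 arrays and above that of Mertk on 0 of 4, and the other Cd47 probe was below both receptors on all 4. The ligands therefore did not share one position relative to the receptors. In the pair that is matched by binding, the receptor Sirpa was called higher and its ligand Cd47 was not; the difference between the pair was not tested.

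The receptor of Cx3cl1 lies outside the 9 genes and also rose. Cx3cr1, the fractalkine receptor of microglia, was at 2.31 ± 0.08 (adjusted p = 0.000152, limma; probe A_55_P2007964), with array ratios of 2.30, 2.30, 2.503 and 2.15. In WT cultures this probe was well above background on 2 of 4 arrays. The other 2 Cx3cr1 probes were at 2.23 and 1.04, and on the last of these no WT spot was well above background. Of the 5 genes listed for the fractalkine axis beside Cx3cl1, 3 rose, 0 fell and 2 did not pass, with a median of 0.30. Ctss, a lysosomal protease that can cleave fractalkine, was at 2.52 ± 0.07 (adjusted p = 8.2e-05), and its WT spot cleared background on 1 of 4 arrays. Gnai2, a G protein subunit that couples chemokine receptors, was at 0.30 ± 0.07 (adjusted p = 0.0473), a call lost in 11 of 16 alternatives, with a ratio of 0.11 under median centring. The membrane sheddases of fractalkine, Adam10 at -0.11 (adjusted p = 0.338) and Adam17 at 0.06 (adjusted p = 0.743), did not pass; the sign of Adam17 depended on the processing.

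Downstream of Cd200r1, 4 of the 7 listed genes were tested, of which 2 rose and 0 fell (median 0.16); the paralogs Cd200r2, Cd200r3 and Cd200r4 were not kept. The adaptor Dok1 was at 0.32 ± 0.06 (adjusted p = 0.0290, limma). Its call was lost in 8 of 16 alternatives. Inpp5d, the inositol phosphatase SHIP1, was at 1.02 ± 0.19 (adjusted p = 0.0274), with array ratios of 0.69, 1.96, 0.65 and 0.77.

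Of the 13 genes listed for Cd47 and SIRP signalling, 10 were tested; 4 rose, 0 fell and 6 did not pass (median 0.30). Tyrobp, the activating adaptor that pairs with SIRP beta and Trem2, was at 2.22 ± 0.09 (adjusted p = 0.000182, limma). Ptpn6, the phosphatase SHP-1 that Sirpa recruits in leukocytes, was at least 1.79-fold higher, with a fitted ratio of 0.87 ± 0.07 (adjusted p = 0.00153) and no WT spot well above background. Here and below, "at least" sets the APPswe/PS1dE9 mean against the WT spot's own signal or, where that is lower, the dimmest signal of the array that cleared background. The more widely expressed phosphatase Ptpn11 (SHP-2) was at 0.07 (adjusted p = 0.537), and its sign turned with median centring. Skap2, a Sirpa-associated adaptor, was at 0.61 ± 0.08 (adjusted p = 0.00685).

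Among the 10 genes listed as TAM receptors and other partners of Mertk, 9 were tested; 3 rose, 0 fell and 6 did not pass (median 0.10). Axl, which binds Gas6, was at 0.47 ± 0.07 (adjusted p = 0.0129, limma), with array ratios of 0.41, 0.28, 0.49 and 0.71; its call was lost in 5 of 16 alternatives. Tyro3, the TAM receptor of neurons, was at 0.10 ± 0.06 (adjusted p = 0.398), with its second probe at 0.09; median centring turned its sign to -0.06. Lgals3, galectin-3, a ligand of Mertk, was at 1.05 ± 0.06 (adjusted p = 0.000539). Socs1, an inhibitor of cytokine signalling, was at 0.28 ± 0.06 (adjusted p = 0.0446), a call lost in 13 of 16 alternatives.

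Among the integrin chains through which Mfge8 is bound, named after their values were seen, Itgb5 was at 0.48 ± 0.10 (adjusted p = 0.0342, limma). Its call was lost in 9 of 16 alternatives. Itgav, the alpha-v chain, was at 0.28 (adjusted p = 0.108) and Itgb3 at -0.08 (adjusted p = 0.633), the last with a sign that changed without single replicates. Adam10, Adam17 and Ptpn11 above were also named after their values were seen.

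Of the 27 other apoptotic cell receptors and opsonins, 19 were tested; 9 rose, 0 fell and 10 did not pass (median 0.39). The complement components C1qa and C1qc, which opsonise dying cells and synapses, were both at 2.07, with SEs of 0.08 and 0.07; C1qa had no value on replicate 4. Trem2, a lipid-sensing receptor of microglia, was at 1.60 ± 0.08. Of the 22 genes of the engulfment machinery, 20 were tested; 5 rose, 0 fell and 15 did not pass (median 0.08). The leukocyte genes Vav1, an exchange factor (1.24 ± 0.06), and Rac2, a small GTPase (1.12 ± 0.08, at least 2.17-fold, no WT spot well above background), rose, as did Abca1, a lipid exporter (1.05 ± 0.07).

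Of the 17 genes for phosphatidylserine exposure and for the find-me signals that attract phagocytes, 15 were tested; 3 rose, 0 fell and 12 did not pass (median 0.12). The nucleotide receptors P2ry6 (0.96 ± 0.07, at least 1.92-fold, no WT spot well above background) and P2ry2 (0.45 ± 0.09; 0.86 and not called with processed signals) and the sphingosine kinase Sphk1 (0.37 ± 0.07) were the genes that rose. Of 25 genes for other inhibitory receptors and restraint ligands, 17 were tested; 6 rose, 3 fell and 8 did not pass (median 0.03). The inhibitory receptors Lilrb4a (1.75 ± 0.06, at least 3.36-fold) and Cd72 (1.42 ± 0.06, at least 2.67-fold), both with no WT spot well above background, rose, as did the microglial growth factor Csf1 (0.94 ± 0.09). The genes that fell were Cntnap2, a neuronal adhesion protein (-0.60 ± 0.09; adjusted p = 0.0131, limma), whose second kept probe was at 0.06 and did not pass; St8sia4, a polysialyltransferase (-0.48 ± 0.07; adjusted p = 0.0113); and Cd24a, a surface glycoprotein of young neurons (-0.30 ± 0.06; adjusted p = 0.0395). Over all these lists, 35 of 97 tested genes rose, 3 fell and 59 did not pass (median 0.17), against 10.3% called higher and 2.16% called lower among named genes. Of the 35, 7 had no WT spot well above background, so they could enter only through the APPswe/PS1dE9 channel. The same held for those of the 35 with WT above background on fewer than 3 arrays, such as Cx3cr1 and Ctss. Among the 75 list genes well above background in both channels on all arrays, 17 were called higher and 3 lower (median 0.073), against 10.7% and 3.45% of 12117 named genes under the same filter. In the lists with 0 genes called lower, limma's unadjusted p was under 0.05 for 1 lower gene of the engulfment machinery (Crk, named after its value was seen) and 2 of phosphatidylserine exposure and find-me signals, and for 0 in the others.

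The sizes of the dim genes depended on the processing. With the scanner software's processed signals, which carry no offset, the log2 ratio was 2.996 for P2ry6, 2.93 for Ptpn6, 2.73 for Rac2, 4.40 for Lilrb4a, 3.07 for Cd72, 3.996 for Ctss, 3.501 for Cx3cr1, 3.37 for Tyrobp, 2.84 for Trem2, 3.46 for C1qa and 4.51 for the macrophage marker Ms4a7, all of them still called higher.

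Calls of smaller differences in these lists, as over all probes, were fewer without replicate 3 or replicate 4, while the ratios moved little. Over all kept probes, 499 were called higher without replicate 3 and 364 without replicate 4, against 1851. Without replicate 3 the lists held 21 genes called higher and 0 lower, and without replicate 4 they held 18 and 0. Dok1, Inpp5d, Axl, Itgb5, P2ry2, Sphk1, Gnai2, Socs1, Cntnap2, St8sia4 and Cd24a lost their calls in both cases, as with Axl at 0.53 and 0.42 and St8sia4 at -0.53 and -0.43, and Skap2 and Csf1 without replicate 4 (adjusted p = 0.0784 and 0.0668, limma). Cx3cr1, Ctss, Tyrobp, Ptpn6, Lgals3, C1qc, Trem2, Vav1, Rac2, Abca1, P2ry6, Lilrb4a and Cd72 kept their calls in both. Gnai2, Cd24a and Socs1 also lost theirs without replicate 2, and Socs1 without replicate 1. Over all 16 alternatives, Cd24a lost its call in 9. In the list downstream of Cd200r1, 0 genes were called without replicate 3 or without replicate 4.

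**Figure D3:**
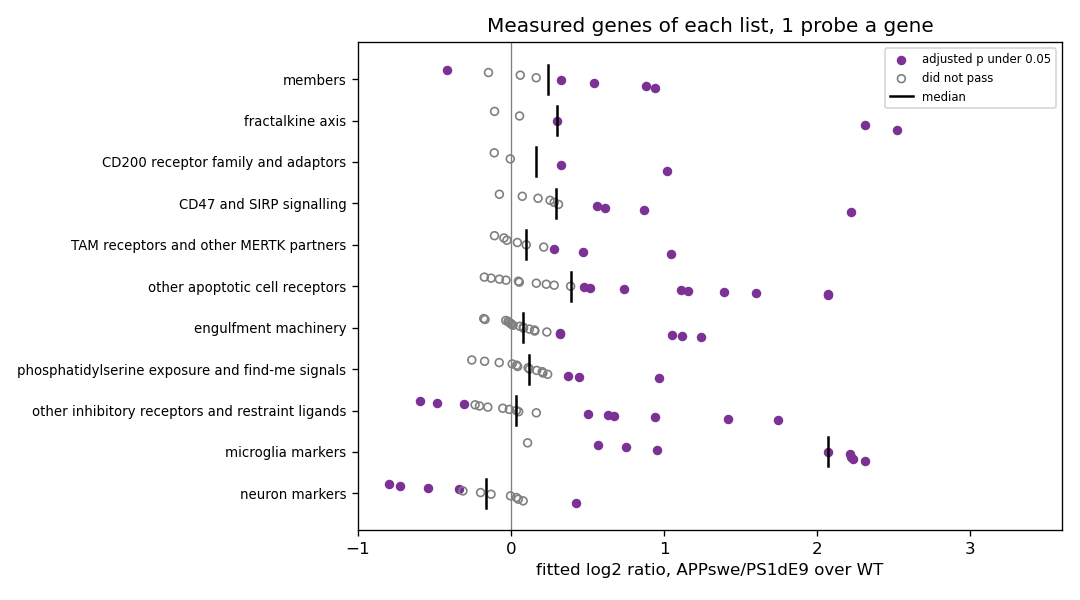
Fitted log2 ratio of APPswe/PS1dE9 over WT (horizontal axis) of each tested gene, 1 probe a gene, by list (rows); filled points passed at an adjusted p under 0.05 and vertical bars are list medians. The members have a median of 0.24, the microglia markers of 2.07 and the neuron markers of -0.16.

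Markers of some of the cell types these cultures could hold also differed between the genotypes, and those of others did not. Of 9 tested microglia markers, 8 rose and 0 fell (median 2.07), against 10.3% of named genes called higher and 2.16% lower. The summed signal of the 8 with values on all arrays was 12998 to 16887 in APPswe/PS1dE9 and 9416 to 11732 in WT cultures. Aif1 was at 2.22, whereas the marker of highest signal, Itgam, was at 0.11 and did not pass. P2ry12 and Ptprc were not well above background often enough to be kept, and Cd68 had no matched probe. The markers C1qa, Cx3cr1 and Tyrobp also stand in the lists above. C1qa (WT above background on 1 array) and Cx3cr1 passed the filter on dim signal only through the APPswe/PS1dE9 channel. Of 6 border macrophage markers, Ms4a7 (fitted ratio 2.13, at least 4.39-fold, no WT spot well above background) and Pf4 (0.83, WT above background on 1 of 4 arrays) were kept and rose, with a summed signal of 433 to 785 against 137 to 253.

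Of 8 astrocyte markers, 4 rose and 0 fell (median 0.37), with a summed signal of 139727 to 154433 against 101188 to 123812. Aldoc, the brightest, was at 0.30, a call lost in 12 of 16 alternatives, among them leaving out any 1 replicate (adjusted p = 0.0548 to 0.173, limma); with median centring it was at 0.087. Gfap was at 0.69, with its other probes at 0.42 and 1.16. Of 12 neuron markers, 1 rose and 4 fell (median -0.16), with overlapping summed signals of 115211 to 132084 and 126021 to 143906. Tubb3 was at -0.13 and did not pass. Nefl, like Aif1 and Gfap named after its value was seen, was at -0.72. The ratios of the 12 ran from -0.80 to 0.43. Of 8 oligodendrocyte markers, 0 passed in either direction (median 0.06). Of 6 progenitor markers, 1 rose and 1 fell (median -0.04), Vim being at 0.97 and the lowest ratio being -0.63. Of 3 tested endothelial markers, 1 rose and 0 fell (Kdr at 0.04 did not pass), and of 5 fibroblast and mural markers, 0 rose and 2 fell (Dcn at -0.25 did not pass). The part of these marker shifts in the differences of the 9 genes was not tested.

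For each called member, the named genes outside the lists whose 4 array ratios lay nearest, by Euclidean distance in log2 units, were found. For Cx3cl1 they were the stress-induced transcription factor Atf3 (distance 0.15) and the transporter Slc15a3 (0.24). The median distance was 1.93 over all named genes outside the members, lists and markers. The nearest genes were picked from these, so their distances lie below the median by construction. For Sirpa they were the signalling adaptor Ticam1 and Pttg1ip, both at 0.08 (median 0.81). For Gas6 they were Gprc5b (0.09) and the reductase Cyb5r3 (0.11; median 1.13). For Pros1 they were the protease Ctsc (0.12) and Crygs (0.15; median 1.83), both of which also had their highest ratio on replicate 4. For Mfge8 they were Cish (0.10) and the sterol pathway enzyme Fdps (0.11; median 0.97).

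**Figure D4:**
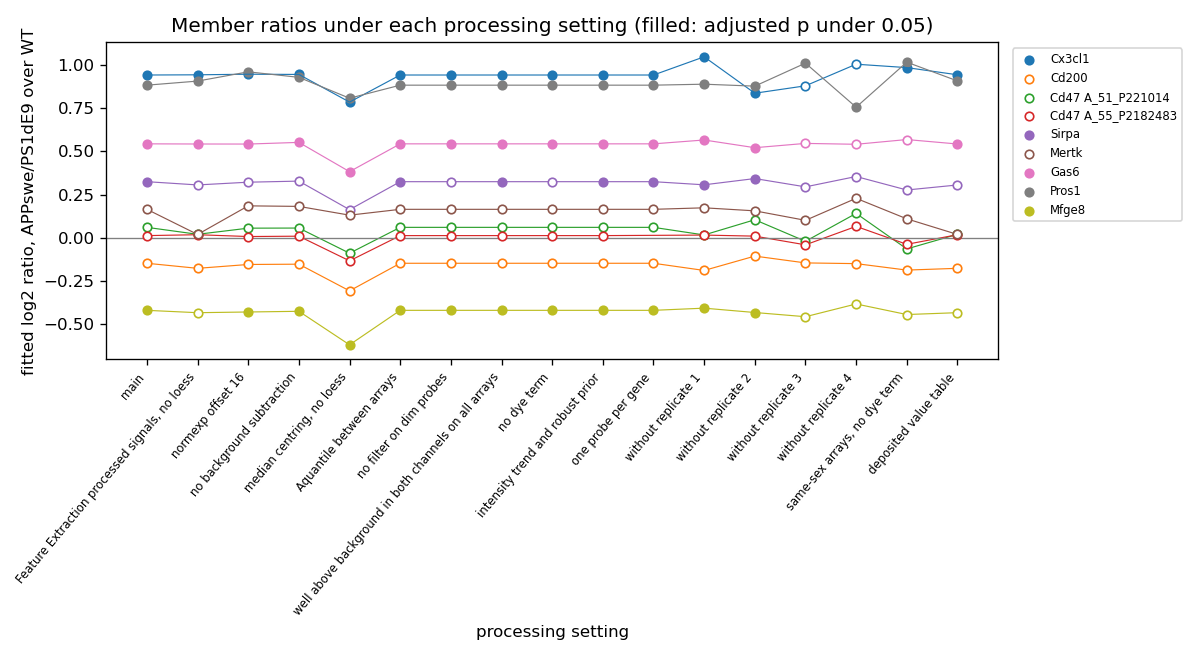
Fitted log2 ratio of APPswe/PS1dE9 over WT (vertical axis) of each tested member probe under each processing setting (horizontal axis); filled points passed at an adjusted p under 0.05. Pros1 is filled under every setting, Cd200, Mertk and Cd47 under none, and Sirpa loses its call under 10 of 16 alternatives.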

How the data were processed

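Per the labels, total RNA (100 ng) was amplified and labelled, and 1 slide of 4 arrays was scanned and quantified by Feature Extraction 11.0.1.1 with mm9 annotation, per the file headers. The authors deposited scanner files with unnormalised median intensity values for each spot and its background, and processed intensity values with their log10 ratio (Cy5 over Cy3). The value table the authors deposited (29350 rows, no stated scale) held log2 ratios, as its match to the scanner files shows. They were ratios of the processed signals, APPswe/PS1dE9 over WT and not centred (slopes -1.00, -1.00, 1.00 and 1.00 on log2 Cy5 over Cy3; column medians -0.0797, -0.155, -0.0373 and -0.0378).

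Here, normexp (offset 50) on median signals and loess within arrays were run in limma 3.58.1 (R 4.3.3), giving control and outlier spots weight 0 and dropping them afterwards; replicate spots of 1 probe were averaged. Kept probes were well above background in 1 genotype's channel on at least 3 of 4 arrays. RefSeq's GRCm38.p6 gene table, used for names alone, gave 27509 probes a symbol (20887 symbols). Fits used lmFit and eBayes with genotype and dye terms (2 residual and 4.16 prior degrees of freedom), two-sided. SE and p-values leave out any gap between dye orientations. The offset draws dim ratios towards 0. The fit was also run on simulated data, with an outcome that is not reported here. Precision is limited by the number of arrays.

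The members and lists were chosen with earlier results of these data known. A list gene was represented by its kept probe of highest mean intensity. Named were the members; Cx3cr1, Axl and Tyro3; up to the 3 highest and 3 lowest called genes of each list; the 2 nearest genes of each called member; the brightest marker of each cell type, except oligodendrocytes, whose marker is not reported here; and App, Prnp, Xist and Eif2s3y. Others were named after their values were seen. Xist was at -2.85 on replicate 1 and 3.40 on replicate 3, and at -0.41 and -0.22 on replicates 2 and 4. By Xist and Eif2s3y, replicates 1 and 3 each paired cultures that differed in sex, and replicates 2 and 4 did not. Alternatives were the processed signals, other background corrections, centring, filters, no dye term, another prior, 1 probe a gene, each array left out, replicates 2 and 4 alone, and the value table.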

Additional observations from a re-analysis of the deposited data

Results flagged for a closer look

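In 51 sets of 4 array ratios examined, 6 had 1 array far from the other 3 by Dixon's criterion, which chance alone meets in about 1 of 20 sets. Among the members, the second Cd47 probe (A_55_P2182483) was at 0.17 on replicate 3, Mertk was at 0.35 on replicate 3, and Pros1 was at 1.29 on replicate 4. Without these arrays Pros1 kept its call, and Cd47 and Mertk passed the test neither with nor without them. Among the listed genes, Inpp5d was at 1.96 on replicate 2, Trem2 at 1.91 on replicate 1 and Vav1 at 1.35 on replicate 4. All 6 values lay on the high side of their set.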

How the results depend on the processing

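Of 16 alternatives, none ended the call of Pros1, and Cd200 and Mertk did not pass in any. No alternative turned the sign of a called member. The number of member probes called higher (4) was 1 to 4 with 1 replicate left out and 2 on replicates 2 and 4 alone, where no Eif2s3y spot cleared background. The number called lower (1) was 0 to 1 with 1 replicate left out, and 0 with processed signals, on replicates 2 and 4 alone and in the value table. With single replicates left out, Cx3cl1 was 0.84 to 1.05, Gas6 0.52 to 0.57, Sirpa 0.29 to 0.35 and Mfge8 -0.46 to -0.38; Cd47 was -0.021 to 0.14 (A_51_P221014) and -0.041 to 0.066 (A_55_P2182483). On replicates 2 and 4 alone, Gas6 was 0.57, Sirpa 0.28 and Mfge8 -0.44, none of them called (adjusted p = 0.112, 0.529 and 0.269, limma), while the Cd47 probes were at -0.065 and -0.038. Median centring without loess put Sirpa at 0.16 and the Cd47 probes at -0.089 and -0.13. Sirpa also lost its call with processed signals (0.31), an offset of 16 (0.32), no background subtraction (0.33), no filter (0.32), no dye term (0.32) and the value table (0.31). Mfge8 lost its call with processed signals (-0.43) and with the value table (-0.43).

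Over all probes, 1851 were higher and 512 lower, so 78.3% of calls were higher. Median centring gave 1689 lower and a higher share of 48.1%, with the median of all probes at -0.07. Processed signals gave 757 higher and 225 lower, no filter 1050 and 98, replicates 2 and 4 alone 453 and 7, and single replicates left out 364 to 2834 and 5 to 722. Fewer were lower with no background subtraction (300) and with no dye term (299). Of the list genes, 35 were higher and 3 lower. Processed signals gave 22 and 0, replicates 2 and 4 alone 19 and 0, and single replicates left out 18 to 36 and 0 to 3. Requiring signal above background in both channels on all arrays left 17 higher of 75 tested genes, against 35 of 97. That filter took out the 7 genes called higher that had no WT spot well above background. Median centring gave 6 lower. Signs of genes that were not called turned with median centring for Tyro3 (-0.063), Itgam (-0.064), Kdr (-0.11) and Ptpn11 (-0.11), on replicates 2 and 4 alone for Itgam (-0.013) and Itgb3 (0.069), and with processed signals or the value table for Adam17 (-0.072 in both). With single replicates left out, Itgam was -0.032 to 0.25, Kdr -0.10 to 0.17, Itgb3 -0.17 to 0.015 and Adam17 -0.045 to 0.16. Over all named list and marker genes, 558 of 675 values under an alternative kept direction and call, 100 lost the call, 4 gained one and 13 changed sign. The cause of these changes was not tested. Each array already pairs the genotypes, so the fit on ratios is the paired one.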
